A study of Caenorhabditis elegans with 7 samples.

Results

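The genes described here act in the germ line, in the egg and in the first divisions of the embryo. They are 33 genes for the eggshell and egg surface, meiosis, regulation of the germ line, early embryo polarity and P granules, and they were picked by name from a table of small RNA reads at splice junctions. All 33 are listed in that table, among 3717 genes, and they hold 84 of its 7678 introns. The members lie on chromosomes I (9 genes), II (4), III (7), IV (8), V (4) and X (1).

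Small RNA was cut from a gel of total RNA from Caenorhabditis elegans embryos, which had been freed from adults with alkaline hypochlorite, and was sequenced as 7 libraries of 5 genotypes. All strains share the N2 background. Experiment 1 comprised a library of wildtype N2 and of each of rnp-3(ok1424), mog-2(ok1221) and rnp-2(mg582). Experiment 2 comprised a second library of wildtype N2 and of rnp-2(mg582) and the only library of rnp-2(tm4058). By way of background, the product of rnp-2 resembles the A subunit of the U1 snRNP and those of rnp-3 and mog-2 resemble U2 snRNP subunits, and mog-2 belongs to the genes named for masculinization of the germ line. The labels do not say what each allele changes, how old the embryos were or whether their mothers were homozygous. Separate cultures for the libraries are not stated either, and all p-values therefore reflect spread among libraries that may be technical.

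As background, endogenous small interfering RNAs of C. elegans are made against messenger RNAs by RNA-dependent RNA polymerases and are bound by Argonaute proteins. A small RNA copied from a spliced messenger can span the joint between exons, whereas one copied from an unspliced precursor can span the edge of an intron. In the germ line and early embryo much of this machinery sits in and around P granules, the RNA-rich germ granules beside the nucleus, and most transcripts made in the germ line are targets of such RNAs.

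Each intron of the members is defined by the bases at its ends, and those shown here belong to introns that are taken up by name in the results that follow. Sequences come from the deposited table and run 5′ to 3′ on the strand of the gene. A donor is given as 5 exon bases and 10 intron bases and an acceptor as 10 intron bases and 5 exon bases, with the first and last dinucleotide of the intron in capitals. Positions are 1-based and follow the table, read as WBcel235.
cpg-2 intron 1 (III:7103877-7103919, minus strand), donor: tcaagGTgcgagttt
cpg-2 intron 1, acceptor: gacaattcAGactgt
cpg-2 intron 2 (III:7103492-7103534, minus strand), donor: aaatgGTaagttaat
cpg-2 intron 2, acceptor: tttttttcAGtttgt
cpg-2 intron 3 (III:7102759-7102804, minus strand), donor: tgaagGTacgatcgt
cpg-2 intron 3, acceptor: cttttttcAGaatct
cpg-2 intron 4 (III:7102439-7102482, minus strand), donor: cgaagGTgaatttgt
cpg-2 intron 4, acceptor: tttatttcAGacact
pgl-1 intron 3 (IV:6976774-6976817, minus strand), donor: aatttGTaagtgtga
pgl-1 intron 3, acceptor: aacgttttAGcgtcc
puf-3 intron 1 (IV:13511745-13511816, minus strand), donor: ttgaaGTgagtttag
puf-3 intron 1, acceptor: aaattttcAGctcga
puf-11 intron 1 (IV:6421946-6422082, plus strand), donor: ttgaaGTaagtttta
puf-11 intron 1, acceptor: ctattttcAGctcga
htp-2 intron 3 (IV:6420568-6420616, plus strand), donor: taaccGTtagattaa
htp-2 intron 3, acceptor: caatttgtAGgattc

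All 84 introns of the members match an annotated intron, and 83 lie within the coding sequence. Short introns prevail among them. Of the 84, 77 (91.7%) were shorter than 60 bases, against 3452 of 6771 other introns listed with both ends (51%), and the medians were 47 and 58 bases. The longest was intron 4 of zyg-1, the kinase gene of centriole duplication, at 2022 bases, within which bli-2 lies on the opposite strand. In all, 13 members overlap another annotated gene somewhere along their length. Every acceptor ended in AG. The letters TTTCAG closed 65.5% of the members' introns and 50.8% of the others, GTAAG opened 17.9% and 25.6%, and the donor GC, read on the gene's strand like the other motifs, occurred once, in car-1, and in 0.473% of the others. These shares describe the introns that are listed, which are 46.2% of the 182 introns in the members' transcripts, and they carry no test.

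**Figure D1:**
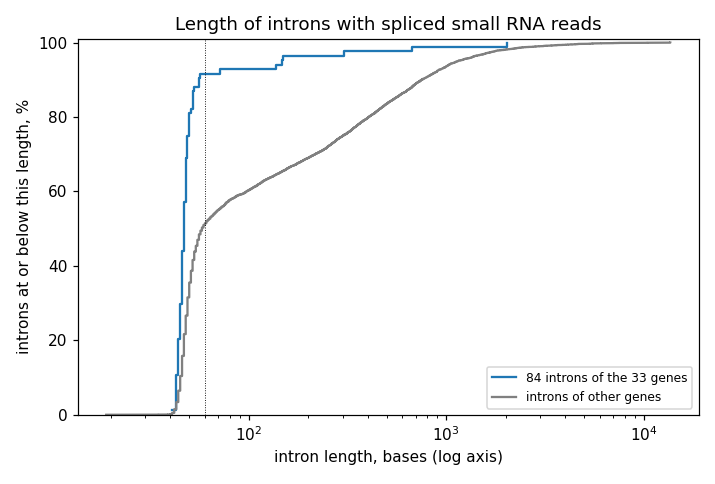
Cumulative share of introns (vertical axis, percent) at or below each length (horizontal axis, bases, log scale) for the 84 introns of the 33 genes and for the other listed introns. The dotted line marks 60 bases, below which 91.7% of the members' introns and 51% of the others lie.

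The members carried 7027 spliced reads over the 7 libraries. Library totals ran from 9901228 reads in rnp-3(ok1424) to 142819946 in rnp-2(tm4058). Spliced junction reads were nonetheless fewest in rnp-2(tm4058) (73841, 0.0517% of its reads) and most in wildtype 2 (474198, 0.537%). Their share was highest in rnp-3(ok1424), at 1.88%. Of the spliced reads the members took 0.429% and 0.436% in wildtype 1 and 2, 0.484% and 0.371% in rnp-2(mg582) 1 and 2, 0.463% in rnp-2(tm4058), 0.397% in mog-2(ok1221) and 0.437% in rnp-3(ok1424). The mutant shares lay on both sides of the wildtype shares. Levels from here on are CPM of spliced reads, a share of all library reads, divided by a library factor that levels the bulk of junctions (TMM), written as scaled CPM. That factor was lowest in rnp-2(tm4058) (0.0846) and highest in rnp-3(ok1424) (2.98), so a direction is always relative to the bulk of the table's junctions, not to all reads. Small RNA of whole embryos was measured, so fewer cells of a type and less RNA per cell cannot be told apart.

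By number, markers of other tissues were few among the listed genes, though the neuron genes were not low in summed level. None of 11 intestine genes was listed, and 3 of 12 sperm genes, 2 of 7 muscle genes, 4 of 8 neuron genes, 1 of 6 hypodermis genes and 2 of 8 genes of zygotic transcription were. Their summed levels ran from 1.16 to 3.58 scaled CPM for sperm, 0.784 to 2.66 for muscle, 15.0 to 36.7 for neurons and 0.0586 to 0.613 for the zygotic genes. Nearly all of the neuron sum came from unc-10, at 14.6 to 36.3. Of the sperm genes spe-41 fell in rnp-2(mg582) (adjusted p = 0.0147 in limma, where 8.34% of all genes tested passed) and rnp-2(tm4058) (adjusted p = 0.0124, 7.94%). The other sperm genes did not pass, with log2 changes of 0.40 and 0.13 for spe-47 and -0.02 and 0.14 for spe-39. With experiment as a block in limma, lev-11 of muscle fell in rnp-2(mg582) (adjusted p = 0.000525) and lin-12 of the zygotic genes rose (adjusted p = 0.0130). In that fit 20.2% of all genes passed. Without the block neither passed. In mog-2(ok1221), with 1 library, log2 changes were -1.27 for lev-11, -1.09 for unc-10 and 1.13 for spe-47. These genes were named after their values were seen. At the mutated loci rnp-2 had 0.225 and 0.198 scaled CPM in wildtype, 0.387 and 0.301 in rnp-2(mg582) and 0.0827 in rnp-2(tm4058), and rnp-3 had 0 reads in rnp-3(ok1424) against 5 and 8 in wildtype. The gene mog-2 was not analysed here.

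Because each junction is 1 position, genes can be compared per listed intron. On that scale htp-1 stood highest, at a mean of 0.782 scaled CPM per intron over the 7 libraries (0.496 to 1.11), followed by the Notch receptor gene glp-1 at 0.654 (0.331 to 1.04), cpg-1 at 0.540 (0.410 to 0.745), pgl-1 at 0.530 (0.372 to 0.847) and puf-3 at 0.487 (0.143 to 0.786). The ranges of these 5 neighbours overlapped. At the low end stood nos-2, the Nanos homolog, at 0.0847 (0.0151 to 0.203), egg-2 at 0.0689 (0 to 0.169) and meg-1 at 0.0549 (0 to 0.169), each of whose ranges lay below that of htp-1. The lowest peak of any listed junction was 0.505 CPM, taken here as the listing limit, so introns with few reads are missing from these means. In rnp-3(ok1424) 5 reads met that limit, while libraries with more reads in total needed more. Introns that reached it only there were egg-1 intron 1, oma-2 intron 3, mei-1 intron 2, deps-1 intron 8, zyg-1 intron 4 and htp-2 introns 2 and 3. The same held for the listed introns of egg-2, gld-2, meg-1 and nos-2 and for introns 1 and 3 of cpg-2. The genes described with every library are the 12 with the largest mean level, the member with most reads in each group of roles, and members with more unspliced than spliced reads at an intron of some library, 14 in all. The other 19 are given by range, and any of them with values of its own was named after those values were seen.

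**Figure D2:**
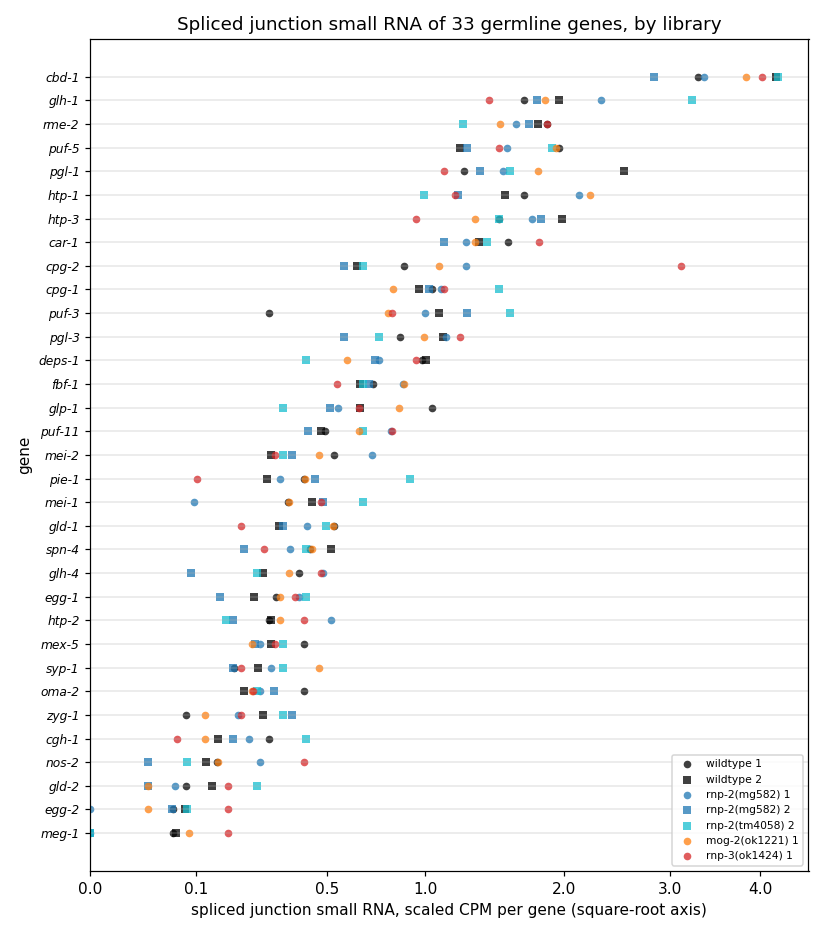
Spliced junction small RNA of each of the 33 genes (rows, ordered by mean) in scaled CPM per gene on a square-root axis, 1 point per library. Circles are libraries of experiment 1 and squares those of experiment 2. Most genes show mixed order of wildtype and mutant points, and the rnp-3(ok1424) point of cpg-2 at 3.11 stands apart.

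Small RNAs of the 6 eggshell and egg surface genes summed to 7.44 and 7.90 scaled CPM in wildtype and to 6.36 to 10.7 in the mutants. The chitin-binding eggshell gene cbd-1 had 3.29 and 4.19 scaled CPM in wildtype, 3.36 and 2.83 in rnp-2(mg582), 4.22 in rnp-2(tm4058), 3.84 in mog-2(ok1221) and 4.03 in rnp-3(ok1424). Its wildtype and mutant libraries overlapped. For rme-2, the yolk receptor of oocytes, the wildtype libraries had 1.86 and 1.79, and those of rnp-2(mg582) 1.61 and 1.72, while it had 1.24 in rnp-2(tm4058), 1.49 in mog-2(ok1221) and 1.86 in rnp-3(ok1424). Both rnp-2(mg582) values lay under both wildtype values, by less than the error of the comparison (log2 -0.10 ± 0.23 SE). The chondroitin proteoglycan gene cpg-1 had 1.04 and 0.966 in wildtype, 1.10 and 1.03 in rnp-2(mg582), 1.49 in rnp-2(tm4058), 0.820 in mog-2(ok1221) and 1.12 in rnp-3(ok1424). Here too the groups overlapped. The sperm-egg surface genes egg-1 and egg-2 ran from 0 to 0.414.

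The other proteoglycan gene of the eggshell, cpg-2, was the member with the largest difference. It had 0.879 and 0.635 scaled CPM in wildtype, 1.26 and 0.573 in rnp-2(mg582), 0.662 in rnp-2(tm4058), 1.08 in mog-2(ok1221) and 3.11 in rnp-3(ok1424). The rnp-3(ok1424) library stood above the 6 others, among which mutants and wildtype overlapped. Its level was 2.89-fold that of wildtype (95% interval 1.63 to 5.11, log2 1.53 ± 0.36 SE), and the adjusted p was 0.169 in limma and 0.160 in edgeR. With experiment as a block the log2 change was 1.28 and the adjusted p 0.00630, with 1 library of this genotype and 142 of 3551 genes (4%) past the threshold. The fold is on the scale of scaled CPM + 0.5, which understates changes of low genes. Before scaling, rnp-3(ok1424) had 9.29 CPM and the other libraries 0.0560 to 2.83.

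The ends of the 4 introns of cpg-2 are printed above. Introns 1 and 3 reached the listing limit of 0.505 CPM only in rnp-3(ok1424), at 0.909 and 1.92 CPM against at most 0.480 elsewhere, so their highest library was fixed by the listing. Introns 2 and 4 also reached it in other libraries. The fold and adjusted p-values above use all 4 introns, and no fit was made on introns 2 and 4 alone. Intron 1 had 0.305 scaled CPM in rnp-3(ok1424) and at most 0.226 elsewhere, intron 2 1.35 and at most 0.549, intron 3 0.643 and at most 0.226, and intron 4 0.812 and at most 0.293. The reads behind these rnp-3(ok1424) values were 9, 40, 19 and 24. Summed over introns 2 and 4 alone, its level was 0.633 and 0.410 scaled CPM in wildtype, 0.807 and 0.362 in rnp-2(mg582), 0.414 in rnp-2(tm4058), 0.820 in mog-2(ok1221) and 2.17 in rnp-3(ok1424), which again was the highest library. In the same library bli-1, the only listed hypodermis gene of 6, had 0.677 scaled CPM (20 reads) and was at 0 in the 6 others. Its spliced reads could therefore meet the listing limit only in rnp-3(ok1424), and no test of a rise is given for it. The part of bli-1 in the cpg-2 result was not tested.

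**Figure D3:**
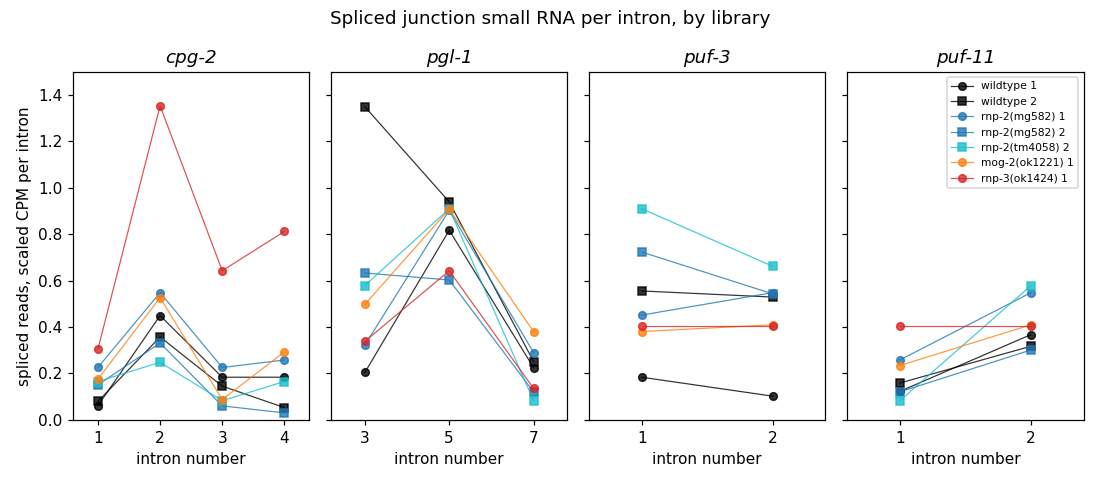
Spliced reads per intron (vertical axis, scaled CPM) against intron number in the gene (horizontal axis) for cpg-2, pgl-1, puf-3 and puf-11, 1 line per library. The rnp-3(ok1424) line of cpg-2 lies above the others at all 4 introns, and the wildtype 2 line of pgl-1 lies above the others at intron 3.

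The 6 meiosis genes, for the chromosome axis, synapsis and the meiotic spindle, summed to 4.52 and 4.79 scaled CPM in wildtype and to 3.52 to 5.49 in the mutants. The axis gene htp-1, a HORMA domain protein, had 1.68 and 1.54 scaled CPM in wildtype, 2.13 and 1.21 in rnp-2(mg582), 0.993 in rnp-2(tm4058), 2.23 in mog-2(ok1221) and 1.18 in rnp-3(ok1424). The rnp-2(mg582) libraries lay on either side of wildtype. The HORMA gene htp-3 had 1.49 and 1.98 in wildtype, 1.74 and 1.81 in rnp-2(mg582), 1.49 in rnp-2(tm4058), 1.32 in mog-2(ok1221) and 0.947 in rnp-3(ok1424). Its lowest value was that of rnp-3(ok1424), with log2 -0.62 ± 0.30 SE (adjusted p = 0.462 in limma). The paralog htp-2 had 0.286 and 0.291 in wildtype, 0.516 and 0.181 in rnp-2(mg582), 0.165 in rnp-2(tm4058), 0.322 in mog-2(ok1221) and 0.406 in rnp-3(ok1424). The synaptonemal complex gene syp-1 and the katanin genes mei-1 and mei-2, needed for the meiotic spindle, ran from 0.0968 to 0.710. Of the 10 exon bases beside an intron, htp-1 and htp-2 differ at 2 at each of their introns 1 and 3, so how reads shared by the copies were placed may bear on both genes, and this was not tested.

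The 10 regulators of the germ line, RNA-binding or RNA-modifying proteins apart from the Notch receptor gene glp-1, summed to 6.09 and 5.37 scaled CPM in wildtype and to 5.07 to 6.62 in the mutants. The gene puf-5, of the Pumilio family of translational regulators, had 1.96 and 1.22 scaled CPM in wildtype, 1.55 and 1.27 in rnp-2(mg582), 1.90 in rnp-2(tm4058), 1.93 in mog-2(ok1221) and 1.49 in rnp-3(ok1424). All mutant values lay between the wildtype values. For puf-3 the wildtype libraries had 0.286 and 1.09, and those of rnp-2(mg582) 1.0 and 1.27, while it had 1.57 in rnp-2(tm4058), 0.791 in mog-2(ok1221) and 0.812 in rnp-3(ok1424). Wildtype 1 was the lowest library, and puf-3 was the member with the largest gap between the wildtype libraries (log2 1.01). Against wildtype the log2 change of puf-3 in rnp-2(mg582) was 0.54 ± 0.34 SE (adjusted p = 0.398 in limma), and it was 0.05 without wildtype 1 and 1.06 without wildtype 2. Its paralog puf-11 had a log2 change of 0.16, and the exon bases beside intron 1, printed above, differ at 0 of 10 between the copies.

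The other 8 regulators ran from 0.0293 to 1.04 scaled CPM. They are fbf-1 (Pumilio family), gld-1 (a KH domain translational repressor), gld-2 (a cytoplasmic poly(A) polymerase), glp-1 (which holds the highest level of the 8), puf-11, oma-2 (an oocyte maturation zinc finger protein), nos-2 and spn-4 (an RNA-binding protein of the early embryo). Their log2 changes in rnp-2(mg582) ran from -0.37 (glp-1) to 0.16 (puf-11).

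The 4 genes of the early embryo summed to 0.960 and 0.900 scaled CPM in wildtype and to 0.774 to 1.57 in the mutants. The zinc finger gene pie-1, which represses transcription in germ line blastomeres, had 0.409 and 0.278 scaled CPM in wildtype, 0.323 and 0.452 in rnp-2(mg582), 0.910 in rnp-2(tm4058), 0.410 in mog-2(ok1221) and 0.102 in rnp-3(ok1424). The highest value, in rnp-2(tm4058), rests on 11 reads and the lowest on 3. In rnp-2(tm4058) the log2 change was 0.75 ± 0.24 SE (adjusted p = 0.0973 in limma, 0.254 in edgeR and 0.0443 with experiment as a block, where 18.3% of 3551 genes passed). With library size alone it was -0.85, so its direction depends on the scaling. The gene meg-1, which acts in P granule assembly in the embryo, had 3 and 5 wildtype reads, 0 in the 3 rnp-2 libraries, 3 in mog-2(ok1221) and 5 in rnp-3(ok1424). A count of 0 allows up to 0.0468 scaled CPM over both rnp-2(mg582) libraries and 0.248 in rnp-2(tm4058), against 0.0613 and 0.0662 in wildtype. The rnp-2(mg582) limit lies below both wildtype values, and that of rnp-2(tm4058) lies above them. A fall in rnp-2(tm4058) was thus not detectable with its few junction reads. These limits cover counting error of the 0 counts only, while the wildtype values rest on 3 and 5 reads with error of their own. The order of limit and wildtype values does not by itself establish a fall in rnp-2(mg582). In limma the adjusted p for meg-1 in rnp-2(mg582) was 0.332, and its junction reached the listing limit only in rnp-3(ok1424), at 0.505 CPM. The polarity gene mex-5, meg-1 and zyg-1 ran from 0 to 0.409.

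The 7 genes of P granules and related RNP granules summed to 6.99 and 8.38 scaled CPM in wildtype and to 5.82 to 8.02 in the mutants. The Vasa-like helicase gene glh-1 had 1.68 and 1.96 scaled CPM in wildtype, 2.32 and 1.78 in rnp-2(mg582), 3.23 in rnp-2(tm4058), 1.85 in mog-2(ok1221) and 1.42 in rnp-3(ok1424). The highest library was rnp-2(tm4058), at log2 0.69 ± 0.31 SE (adjusted p = 0.205 in limma). The core P granule gene pgl-1, an RGG box protein, had 1.25 and 2.54 in wildtype, 1.52 and 1.36 in rnp-2(mg582), 1.57 in rnp-2(tm4058), 1.79 in mog-2(ok1221) and 1.12 in rnp-3(ok1424). Wildtype 2 was the highest, and 102 of its 192 reads crossed intron 3, against 10 of 61 in wildtype 1. Intron 5 of pgl-1 had 0.817 and 0.940 scaled CPM in these libraries, so the gap lay at 1 junction. The log2 change of pgl-1 in rnp-2(mg582) was -0.25 ± 0.31 SE, and 0.15 without wildtype 2.

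Its relative pgl-3 had 0.858 and 1.11 scaled CPM in wildtype, 1.13 and 0.573 in rnp-2(mg582), 0.745 in rnp-2(tm4058), 0.996 in mog-2(ok1221) and 1.22 in rnp-3(ok1424). The groups overlapped. The Sm-like gene car-1 had 1.55 and 1.35 in wildtype, 1.26 and 1.12 in rnp-2(mg582), 1.41 in rnp-2(tm4058), 1.32 in mog-2(ok1221) and 1.79 in rnp-3(ok1424). Both rnp-2(mg582) values lay under both wildtype values (log2 -0.21 ± 0.23 SE). The genes glh-4, deps-1 and the DEAD-box helicase gene cgh-1 ran from 0.0677 to 1.01.

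Among the 33, deps-1, a P granule protein gene, was the 1 member whose 5 mutant libraries all lay below both wildtype libraries, where 8.34% of the 3551 genes tested did so and 5.27% lay all above, a pattern no member showed. It had 0.981 and 1.01 scaled CPM in wildtype, 0.742 and 0.724 in rnp-2(mg582), 0.414 in rnp-2(tm4058), 0.586 in mog-2(ok1221) and 0.947 in rnp-3(ok1424). The rnp-3(ok1424) value was close to wildtype, and before scaling it was above both, at 2.83 CPM against 2.30 and 0.860. The log2 change over the mutants was -0.35 ± 0.24 SE (adjusted p = 0.683 in limma).

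Among the comparisons, rnp-2(mg582) against wildtype is the only one of a single genotype with 2 libraries on each side. No member passed in limma, where 296 of 3551 genes did (8.34% of those tested), and none passed in edgeR or DESeq2 on reads recovered from the CPM, where 327 and 179 genes did. No member had an unadjusted p under 0.05 either, against 775 genes (21.8%). The members' log2 changes ran from -0.37 to 0.54 with a median of -0.04, beside -0.02 over all genes tested, and 14 were higher and 19 lower. The 95% interval of 32 members lay within a 2-fold change in either direction, and that of puf-3 reached from -0.24 to 1.33 on the log2 scale. The pseudocount of 0.5 CPM narrows these intervals for genes with low levels. With it, a gene under 0.5 scaled CPM in wildtype cannot show a 2-fold fall, even at 0 reads. Median levels of the members in wildtype 1 and 2 were 0.490 and 0.476, so these counts do not show that low genes were unchanged. In 9 members both mutant libraries lay below both wildtype libraries and in none above, where 27.7% and 23.6% of all genes tested did. The 9 were car-1, rme-2, deps-1, glp-1, spn-4, mex-5, egg-2, gld-2 and meg-1, of which deps-1 and those after it were chosen for naming with their values in view. Among them egg-2, gld-2 and meg-1 have 1 listed intron each, which reached the listing limit only in rnp-3(ok1424), on 5 reads. With library size alone 4 were higher and 29 lower, at a median of -0.32 beside -0.24 over all genes. Leaving out rnp-2(mg582) 1 gave 9 higher and 24 lower, and leaving out rnp-2(mg582) 2 gave 18 and 12 of the 30 members that still passed the filter on low counts.

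By role, 1 P granule or RNP granule gene was higher and 6 lower in rnp-2(mg582) (median log2 -0.16), and 5 meiosis genes were higher and 1 lower (0.03). Of the eggshell genes 2 were higher and 4 lower (-0.06), of the germ line regulators 4 and 6 (-0.06) and of the early embryo genes 2 and 2 (-0.05). Over all genes tested 52.3% were lower in rnp-2(mg582). None of these role genes passed the test, and the counts share the dependence on scaling given above.

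**Figure D4:**
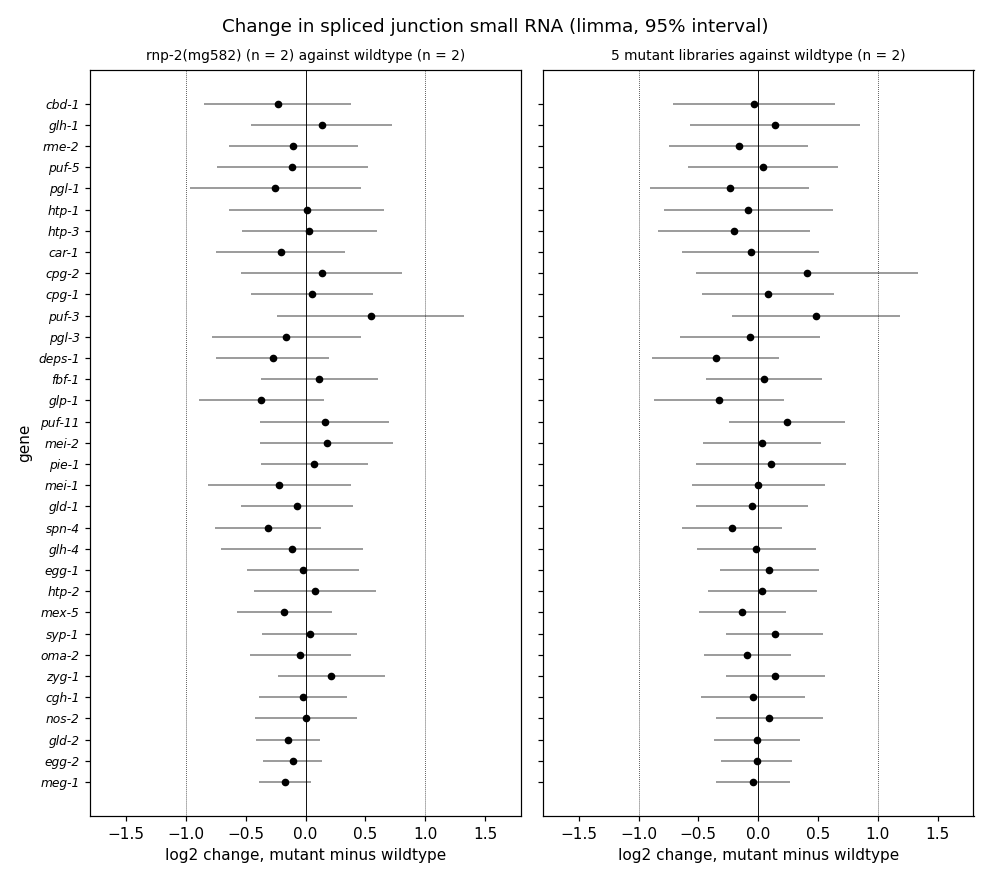
Log2 change of spliced junction small RNA with its 95% interval from limma (horizontal axis, mutant minus wildtype) for the 33 genes (rows, ordered by mean level), in rnp-2(mg582) on the left and in the 5 mutant libraries together on the right. Every interval includes 0, and the dotted lines mark a 2-fold change.

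The genotypes with 1 library were fitted with the spread of the others and have no replicate check. They share the wildtype libraries with each other and with rnp-2(mg582). Each was run in 1 experiment only, while the fit sets it against wildtype of both, so differences of genotype and of experiment are mixed in these changes. In rnp-2(tm4058) no member passed in limma, against 282 of 3551 genes (7.94%), while 3 members (pie-1, glp-1 and deps-1) had an unadjusted p under 0.05, as did 26.7% of all genes. Changes of the members ran from -0.71 (deps-1) to 0.89 (puf-3) on the log2 scale. For puf-3 wildtype 1 was the low library, at 0.143 scaled CPM per listed intron, against 0.543 in wildtype 2 and 0.786 in rnp-2(tm4058). In mog-2(ok1221) none passed, against 75 genes (2.11%), and none had an unadjusted p under 0.05, against 19.9% of all genes, with a range of -0.46 to 0.43. In rnp-3(ok1424) none passed, against 7 genes (0.197%), and 2 (cpg-2 and nos-2) had an unadjusted p under 0.05, against 12.1% of all genes, with a range of -0.62 (htp-3) to 1.53 (cpg-2). Both listed introns of nos-2 reached the listing limit only in rnp-3(ok1424), on 7 and 5 reads. Its highest library was thus fixed by the listing, as in part for cpg-2, and its p does not measure a rise apart from that. By edgeR no member passed in these 3 comparisons. Against the wildtype library of the same experiment alone, the members' changes ran from -0.72 to 0.86 in rnp-2(tm4058). They ran from -0.45 to 0.72 in mog-2(ok1221) and from -0.60 to 1.39 in rnp-3(ok1424). In the fit on both wildtype libraries no member passed in any of the 3. The median log2 changes of the members were -0.03, 0.02 and 0.02 in that order, beside -0.09, -0.01 and -0.03 over all genes. The intervals of 22, 28 and 25 members lay within a 2-fold change, under the same bound from the pseudocount.

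All 5 mutant libraries together, 3 of them rnp-2 libraries, gave 15 members higher and 18 lower than wildtype, with a median log2 of -0.01 for the members and for all genes. The largest change was that of puf-3, at 0.48 ± 0.32 SE, which was -0.01 without wildtype 1 and 1.0 without wildtype 2. No member passed in limma, edgeR or DESeq2. Over all genes 0 passed in limma (0%) and in edgeR and 54 in DESeq2, and 328 (9.24%) had an unadjusted p under 0.05 in limma, none of them a member. Under the same bound from the pseudocount, the intervals of 31 members lay within a 2-fold change, those of cpg-2 (-0.52 to 1.33) and puf-3 (-0.22 to 1.19) being wider.

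Set against the wildtype library of its own experiment, the mutant libraries differed at the members by amounts on both sides of the difference between the wildtype libraries. The median size of the log2 difference over the 33 genes was 0.223 in rnp-2(mg582) 1, 0.171 in rnp-2(mg582) 2, 0.251 in rnp-2(tm4058), 0.139 in mog-2(ok1221) and 0.256 in rnp-3(ok1424). Between the wildtype libraries it was 0.176. Over all genes tested the same sizes were 0.273, 0.245, 0.312, 0.280, 0.234 and, for wildtype, 0.182. A size over 1 occurred for 1 member in rnp-3(ok1424) (cpg-2) and for 1 between the wildtype libraries (puf-3), where 2.82% and 1.30% of all genes had one. In the other mutant libraries no member had one, against 8.48%, 7.63%, 9.72% and 7.89% of all genes in the order above.

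Further genes of germ line, meiosis and early embryo, came from a list of 99, of which 50 were listed and 49 tested. None rose or fell in limma in any of the 5 comparisons, and 3 in rnp-2(mg582), 9 in rnp-2(tm4058), 7 in mog-2(ok1221), 5 in rnp-3(ok1424) and 1 in all mutants had an unadjusted p under 0.05, where the shares of all genes tested were 21.8%, 26.7%, 19.9%, 12.1% and 9.24%. Their summed level was 22.4 and 23.0 scaled CPM in wildtype and 19.3 to 24.7 in the mutants, and the median log2 change was -0.06 in rnp-2(mg582). The members summed to 26.0 and 27.3 in wildtype, and to 27.8, 22.5, 28.3, 27.1 and 27.6 in the mutants in the order used above. With experiment as a block, 1 of them rose (the Argonaute gene csr-1) and 1 fell (puf-9) in rnp-2(mg582), where 20.2% of all genes passed. In that fit zim-3 fell in rnp-2(tm4058) (18.3% of all genes passed), rad-51 and drh-3 fell in mog-2(ok1221) (14.7%), and drh-3 fell in rnp-3(ok1424) (4%). These genes were named after their values were seen.

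Reads within a gene were unevenly spread over its introns. Among the 24 members with at least 2 listed introns, the strongest intron had between 1.07 and 11.2 times the reads of the weakest (median 2.04), and in 9 the ratio was at least 3. The extreme was glh-1, where intron 3 held 258 of 505 reads (51.1%) and intron 2 held 23. In puf-5 intron 2 held 64.7% of the reads. In htp-1, by contrast, introns 1 and 3 had 221 and 206 reads.

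Reads over intron edges, taken as unspliced, were rare in these genes. They numbered 62 of 7089 junction reads, 0.875% (95% Wilson interval 0.683 to 1.12). Of these, 45 lay at acceptor ends and 17 at donor ends, and 58 of the 84 introns had none. By library the share was 0.235% and 0.673% in wildtype, 0.806% and 1.58% in rnp-2(mg582), 1.44% in rnp-2(tm4058), 2.01% in mog-2(ok1221) and 0.245% in rnp-3(ok1424). The rnp-2 and mog-2(ok1221) libraries lay above both wildtype libraries and rnp-3(ok1424) between them. These shares rest on 2 to 19 unspliced reads each, and the interval of mog-2(ok1221), 1.29% to 3.13%, does not reach that of wildtype 2, 0.401% to 1.13%. Intervals cover counting error within a library only, since reads carry no molecular identifiers, and the comparison of 1 library with 1 library has no replicate check.

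In all other listed genes the unspliced share was 7.33% and 7.25% in wildtype, 8.08% and 8.61% in rnp-2(mg582) and 8.30% in rnp-2(tm4058). It was 8.05% in mog-2(ok1221) and 7.42% in rnp-3(ok1424). There too the rnp-2 and mog-2(ok1221) libraries lay above both wildtype libraries, so that order was not particular to the members. The sum over the other genes is dominated by few genes, as 100 genes held 72.8% of their unspliced reads. Per gene the medians were 0.368% for the members and 0.781% for the others, and 42.4% of the members and 38.7% of the others had no unspliced read. In limma no member passed for its log2 unspliced minus log2 spliced difference in rnp-2(mg582). There 229 of 3551 genes (6.45%) did and 735 had an unadjusted p under 0.05. None passed in all mutants together either, where 0 genes (0%) did and 312 had an unadjusted p under 0.05. For the members this test could show little about splicing. They had 62 unspliced reads in all, so with the pseudocount of 0.5 CPM the unspliced term hardly varied. The difference then largely mirrored the spliced level, with a member median over all mutants of 0.0122 against -0.0122 for spliced reads.

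**Figure D5:**
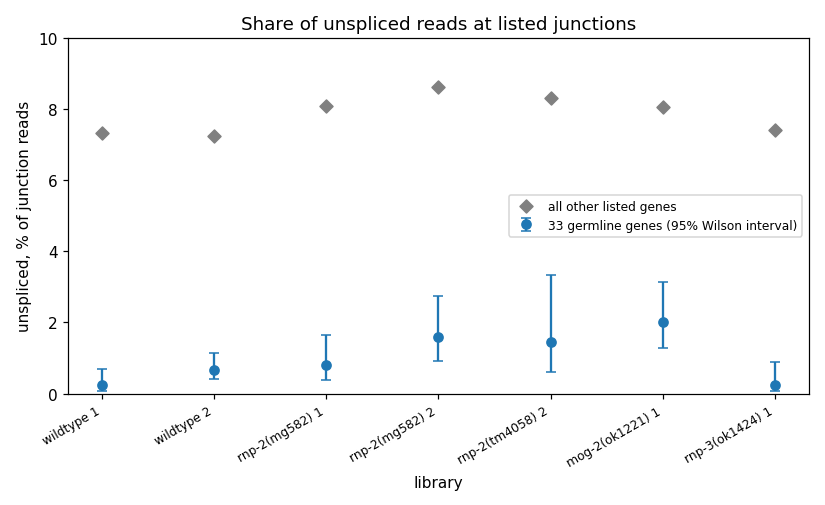
Unspliced share of junction reads (vertical axis, percent) in each of the 7 libraries for the 33 genes, with 95% Wilson intervals, and for all other listed genes (diamonds). The 33 genes lie between 0.235% and 2.01% and the other genes between 7.25% and 8.61%.

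The member with the highest unspliced share was htp-2, at 10.8%. All 10 of its unspliced reads lay at the acceptor end of intron 3, whose letters are printed above. Wildtype had 0 and 2 of them, rnp-2(mg582) had 2 and 0, and the other genotypes had 2 in rnp-2(tm4058), 4 in mog-2(ok1221) and 0 in rnp-3(ok1424). Spliced reads at that intron numbered 6 and 7 in wildtype, 5 and 1 in rnp-2(mg582), 0 in rnp-2(tm4058), 2 in mog-2(ok1221) and 5 in rnp-3(ok1424). Unspliced reads exceeded spliced ones in rnp-2(tm4058) and mog-2(ok1221), and at no other intron of the members in any library. Next came glh-4 with 3 unspliced and 86 spliced reads, and cpg-2 with 8 and 286, both named here after their values were seen.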

How the data were processed

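Per the labels' protocols, small RNA was isolated by gel excision from embryo RNA and sequenced. The authors deposited CPM (counts per unit of library reads) at splice junctions, with separate columns named IEJ and EEJ for each library. No label spells these out, and IEJ is taken as intron-exon (unspliced) and EEJ as exon-exon (spliced) junction. The submitters' processing notes name STAR and SAMtools without version or role. Genome build, use of strand and treatment of multiply aligned reads: not given in the sources used here.

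Of the lines, 14533 had values and 24 without values were not analysed here. In each library 100% of the values came out whole, within 1e-06 reads, when divided by the smallest step of that library, which gave library totals and recovered reads. Lines were joined into introns, and introns within a gene with nearly equal spliced reads (within 5%, from 20 reads up) were counted once, which touched no intron of the members. After filterByExpr, with a minimum count of 10 and a minimum total of 15, 3551 genes remained, all 33 members among them.

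Log2(TMM-scaled CPM + 0.5) was tested with limma 3.58.1 (empirical Bayes with a trend) in R 4.3.3, with Benjamini-Hochberg adjustment over all genes tested and a threshold of 0.05. TMM factors came from edgeR 4.0.16. All 7 libraries entered a fit by genotype, and a second fit set 5 mutant against 2 wildtype libraries. Counts were planned for edgeR, but the unit was CPM, so edgeR and DESeq2 1.42.0 on recovered reads became alternatives, beside other scalings, pseudocounts and filters, experiment as a block, and leaving out each library. The experiment number in the titles pairs wildtype and rnp-2(mg582), and the differences of experiment 1 from 2 correlated between these genotypes (r = 0.38 over 3551 genes). Genes are named by the rule given with the levels. The members, lists and rules were chosen with earlier results of these data known. Donor and acceptor motifs were counted on the gene's strand.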

Additional observations from a re-analysis of the deposited data

Results flagged for a closer look

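The level of cpg-2 in the rnp-3(ok1424) library, 3.11 scaled CPM, stood apart from the 4 other mutant libraries, which had 0.573 to 1.26. The gap to the nearest library was 0.730 of the whole range of the 5 libraries, above the critical value of 0.710 (Dixon). Of 33 genes examined this way 1 was marked, and chance marks about 1 in 20 such groups. The level sums all 4 introns of cpg-2, of which introns 1 and 3 reached the listing limit only in rnp-3(ok1424). Part of the gap was therefore fixed by the listing, and the rule was not run on introns 2 and 4 alone.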

How the results depend on the processing

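No member passed in any comparison under any alternative run, except pie-1 in rnp-2(tm4058) (1 member) and cpg-2 in rnp-3(ok1424) (1 member) with the replicate block. The change of pie-1 was -0.85 with library size alone, against 0.75 in the fit without the block and with the block. With a mean of at least 5 CPM no member was left to test. Of 1090 single-gene values under alternatives, 95 had another sign than the main value, 68 of them on leaving out 1 library and 20 with library size alone, and none of these passed the threshold.

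The number of all genes called depended more on the setting, and the cause was not tested. With the replicate block it was 717 in rnp-2(mg582) (main 296), 650 in rnp-2(tm4058) (282), 521 in mog-2(ok1221) (75) and 142 in rnp-3(ok1424) (7), and 406 for the unspliced difference in rnp-2(mg582) (229). With library size alone it was 0, 0, 2 and 2 in that order. No filter gave 123, 2 and 4 in the genotypes with 1 library, and edgeR gave 137 in rnp-2(tm4058) and 114 in mog-2(ok1221). DESeq2 gave 179 in rnp-2(mg582) and 54 for all mutants, and a mean of at least 5 CPM gave 52 in rnp-2(mg582). Leaving out 1 library gave 3 (without wildtype 1) to 308 in rnp-2(mg582), 0 to 277 in rnp-2(tm4058), 0 to 103 in mog-2(ok1221), 0 to 14 in rnp-3(ok1424) and 0 to 87 (without rnp-3(ok1424)) for all mutants. For the unspliced difference it gave 0 to 255 in rnp-2(mg582) and 0 to 50 for all mutants. The edgeR fit and the omissions for the genotypes with 1 library were added after the data were seen. The low number of junction reads, not of reads in total, limits rnp-2(tm4058) most, where 1 read is worth 0.0827 scaled CPM against 0.0132 in wildtype 2.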
